A study of Homo sapiens with 4 samples.

Results

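BACH1 has been linked to genes of glycolysis and of metastasis in cancer cells, and its binding was examined here around 8 such genes: HK1, HK2, GAPDH, LDHA, SLC16A1, CXCR4, MMP1 and MMP13. The members were the peaks whose summit lay in 1 of 7 windows given for these genes on hg19, with MMP1 and MMP13 in a common window. They numbered 21 of the 13661 peaks of the study, 12 of 10246 in Calu3 and 9 of 3415 in 16HBE14o-. The peaks come from chromatin immunoprecipitation followed by sequencing (ChIP-seq) with a rabbit antibody against BACH1. The study used a pair of human airway lines, Calu3 (a lung adenocarcinoma line) and 16HBE14o- (an immortalised bronchial epithelial line), both grown in DMEM with serum and with no treatment named in the labels. Each line had 2 replicates, which the authors pooled into 1 list of reproducible peaks, so no value below has a replicate error and no difference between the lines could be tested. Read depth is unknown.

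BACH1 is a basic leucine zipper factor that pairs with small MAF proteins on Maf recognition elements and antioxidant response elements, mostly as a repressor, and is released from DNA when it binds haem. In lung cancer cells it has also been described as an activator of hexokinase 2 and GAPDH, and in breast cancer cells it has been tied to CXCR4 and MMP1. The hexokinases HK1 and HK2 phosphorylate glucose at the entry of glycolysis, GAPDH oxidises glyceraldehyde 3-phosphate, LDHA turns pyruvate into lactate, and SLC16A1 (MCT1) carries lactate across the plasma membrane. CXCR4 is the receptor of the chemokine CXCL12 and guides cell migration. MMP1 and MMP13 are secreted collagenases that cleave the extracellular matrix.

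The promoter sequences of these genes show which of them hold a letter pattern of the kind BACH1 is known to recognise. RefSeq promoters of GRCh38.p14, from 250 bases before to 50 bases after the start, were matched for 5 of the 8 genes, 15 promoters in all: 7 of HK1, 3 of CXCR4, 2 each of HK2 and LDHA and 1 of GAPDH. For SLC16A1, MMP1 and MMP13 no promoter sequence was at hand, so their promoters were not searched and nothing is known here of their patterns. Patterns were searched on both strands. The pattern TGANTCAGC, which joins the AP-1 core TGANTCA to the GC of a Maf element and so contains both other patterns searched, was in 1 of the 15 promoters (6.67%), against 1.36% of all 35116 RefSeq promoters. The core TGANTCA, which reads the same on both strands, was in 2 (13.3%, against 7.71% of all promoters). The looser antioxidant response core TGANNNNGC was in 4 (26.7%, against 41.8%), from HK1, GAPDH and CXCR4. The 2 HK2 and the 2 LDHA promoters held none of the 3 patterns in this window.
The following stretches, written on the strand of the gene with the pattern in capitals, are the HK1 stretches with the AP-1 core and, for GAPDH and CXCR4, the TGANNNNGC match nearest to the start. On GRCh38.p14 they are chr10:69334370-69334398 (+ strand, the pattern 234 bases before an HK1 start), chr10:69315750-69315768 (+ strand, 9 bases before another HK1 start), chr12:6535166-6535194 (+ strand, 88 bases before the GAPDH start) and chr2:136117887-136117915 (− strand, 36 bases before a CXCR4 start).
HK1, TGANTCAGC: agcttgcaggTGACTCAGCttgaatatgg
HK1, TGANTCA: taggcagtcaTGACTCAgt
GAPDH, TGANNNNGC on the opposite strand: ttcgcgctctGCGGGGTCAcgtgtcgcag
CXCR4, TGANNNNGC: ggagttttctTGACCATGCctatatagtg
These matches describe letters only. The peaks are on hg19 and the promoters on GRCh38.p14, so no peak was placed on a promoter, an exon or an intron. Below, a peak is given by its position on hg19 and by its distance from the edge of its window.

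BACH1 peaks were present around HK1, HK2, GAPDH and the collagenase genes in both lines, and around SLC16A1 and CXCR4 in neither list. The LDHA window held 1 Calu3 peak, of rank 10152 and a −log10 q of 0, and no 16HBE14o- peak. In Calu3, 5 of the 7 windows held a peak and in 16HBE14o- 4 did. The windows cover 1126 kb together. They held 12 Calu3 peaks, whereas tiles of the same lengths laid end to end along the same chromosomes held 3.74 in sum of their means. In 16HBE14o- the windows held 9 peaks and the tiles 1.36. Tiles take no account of gene density, and its part in these counts was not tested. Of the 12 Calu3 peaks, 7 were in the HK1 window, against a mean of 0.805 in its tiles. Without that window 5 Calu3 peaks remained in 6 windows, among them the LDHA peak and a GAPDH peak with a −log10 q of 0. The tile means of these windows were 0.560 (HK2), 0.421 (GAPDH), 0.332 (LDHA), 0.492 (SLC16A1), 0.353 (CXCR4) and 0.778 (MMP1 to MMP13) in Calu3. In 16HBE14o- 6 peaks remained, and the tile means were 0.192, 0.107, 0.186, 0.170, 0.121 and 0.437 in the same order.

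**Figure D1:**
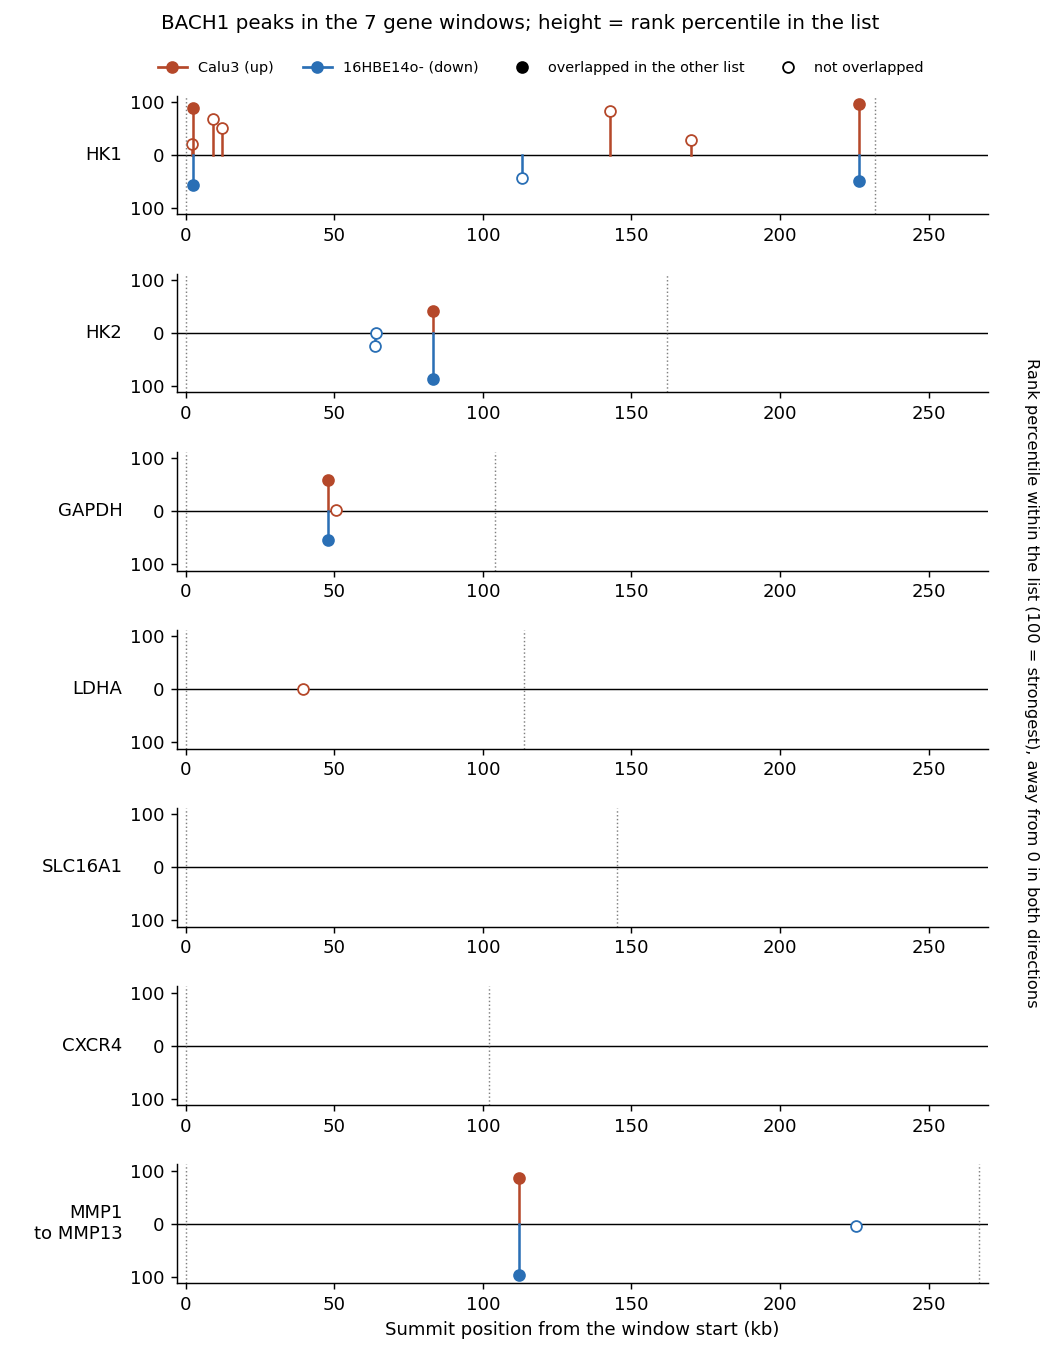
Position of each BACH1 peak summit in the 7 gene windows, in kb from the window start (horizontal), with the rank percentile of the peak in its own list (vertical, 100 is the strongest) drawn upwards for Calu3 and downwards for 16HBE14o-; dotted lines mark the window edges and filled points are peaks that a peak of the other list overlaps. The 5 filled sites coincide in the lines, and the windows of SLC16A1 and CXCR4 hold no peak.

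**Figure D2:**
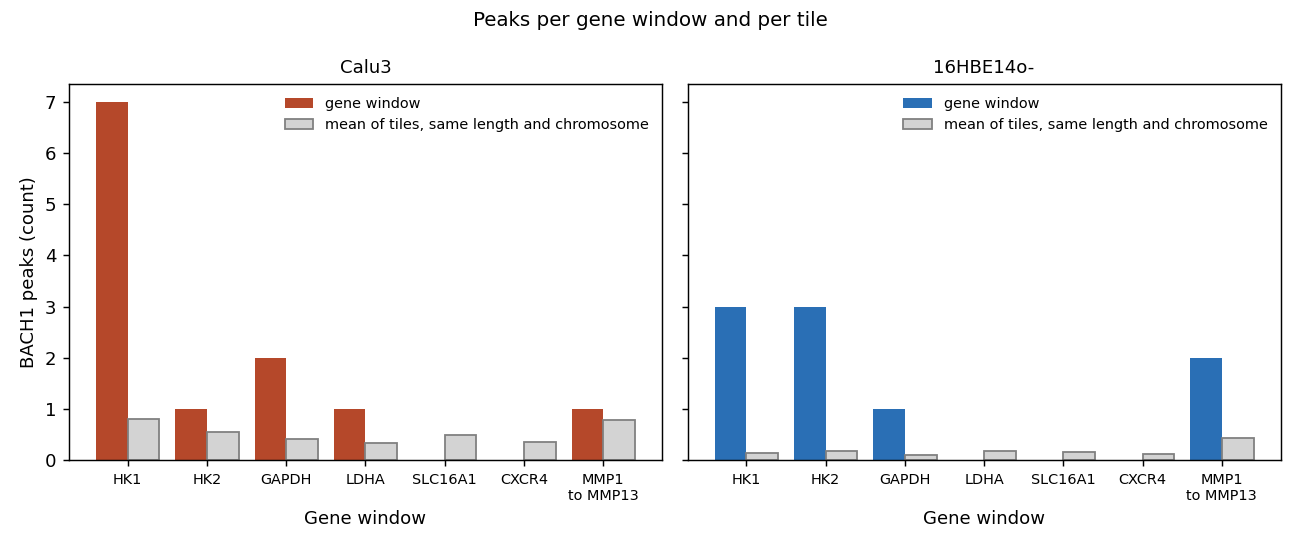
Number of BACH1 peaks in each gene window (coloured bars) and mean number per tile of the same length on the same chromosome (grey bars), for Calu3 and 16HBE14o-. The HK1 window holds 7 Calu3 and 3 16HBE14o- peaks, against tile means of 0.805 and 0.150.

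The lines had 5 sites in common, which is 5 of the 12 Calu3 peaks (41.7%, exact 95% binomial interval 15.2 to 72.3) and 5 of the 9 of 16HBE14o- (55.6%, interval 21.2 to 86.3). Peaks counted as shared when they overlapped by at least 1 bp. Over the whole lists, 15.3% of the Calu3 peaks and 46.4% of the 16HBE14o- peaks were shared. The interval of the 16HBE14o- members holds the value of their whole list. The lower bound in Calu3 lies just under the whole-list value. The interval treats peaks as independent, though 7 of the 12 Calu3 peaks were in the HK1 window, so no weight is put on this bound. Of the 5 sites, 2 were in the HK1 window, and 1 each was in those of HK2, GAPDH and the collagenases. Their summits lay 15, 23, 35, 28 and 0 bp apart between the lines, taken in the order HK1 (lower coordinate), HK1 (higher coordinate), HK2, GAPDH and MMP1 to MMP13. All 5 were within 50 bp, as were 87.3% of the 1585 shared 16HBE14o- peaks.

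By median rank the shared member sites stood above the unshared ones in both lines, as shared peaks did in the whole lists. The rank ranges of shared and unshared members were apart in 16HBE14o- and overlapped in Calu3. In Calu3, rank 1 being the highest fold enrichment, the shared sites ranked 468 to 5978 and the unshared ones 1765 to 10152. In 16HBE14o-, the shared sites ranked 135 to 1721 by peak signal and the unshared ones 1948 to 3409. The median position from the top of the list was 14.7% for shared and 72.5% for unshared Calu3 members, and over the whole Calu3 list it was 17.7% for shared and 54.8% for unshared peaks. In 16HBE14o- it was 44.1% for shared and 86.0% for unshared members, against 28.1% and 66.2% over the whole list. Only 1 member in each line was in the upper 10% of its list: an HK1 peak in Calu3 and the MMP1 to MMP13 peak in 16HBE14o-. By construction about 10.0% of the Calu3 list and 9.99% of the 16HBE14o- list are in that range.

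**Figure D3:**
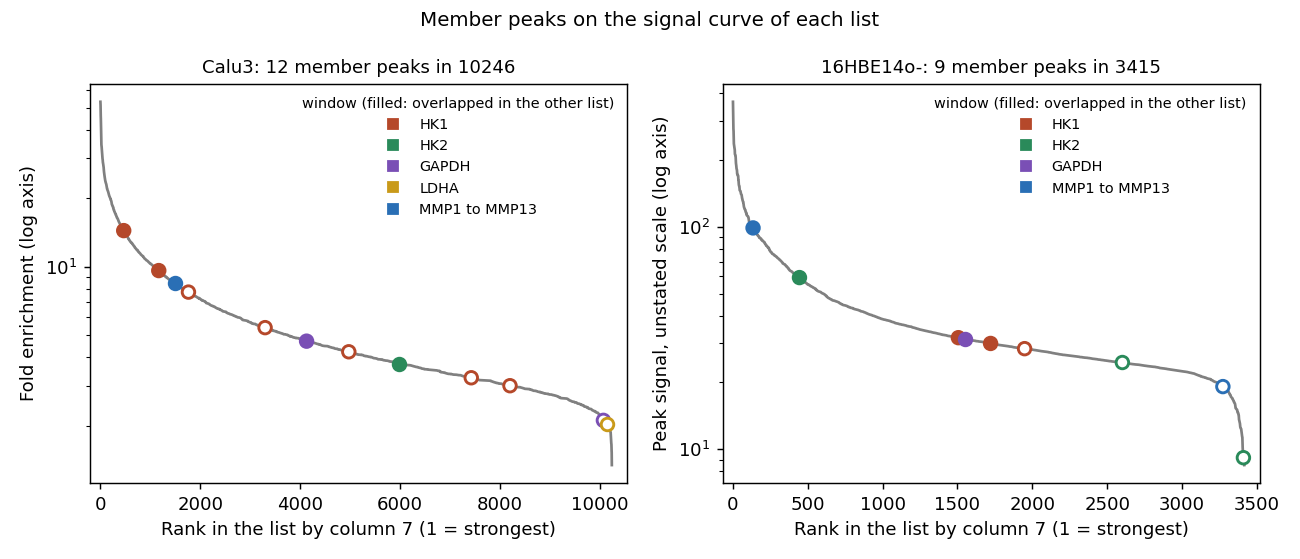
Signal of every peak (grey line, log axis) against its rank in the list, with the member peaks coloured by window; fold enrichment in Calu3 on the left and peak signal on its own, unstated scale in 16HBE14o- on the right. The 5 shared members (filled) of 16HBE14o- all rank above the 4 unshared ones (open), whereas in Calu3 the 2 kinds mix.

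HK1, the hexokinase that most tissues express, had the most Calu3 peaks of the 7 windows. In 16HBE14o- it had as many as HK2 when the overlapping HK2 peaks described below are counted separately, and more when they are merged. The HK1 window on chromosome 10, from 70980 to 71212 kb, held 7 Calu3 peaks and 3 peaks of 16HBE14o-. Of the 579 tiles of that length on the chromosome, 43.2% held a Calu3 peak and 13.0% a 16HBE14o- peak. As many Calu3 peaks or more were in 4 tiles (0.691%), the window included, and as many 16HBE14o- peaks or more in 3 tiles (0.518%). The strongest Calu3 member of all lay here, at 71206401 to 71206839 with the summit at 71206579. It had a fold enrichment of 14.4 and a −log10 p of 58.3, ranked 468 (top 4.57% of the list) and lay 5.42 kb inside the upper edge of the window. Its 16HBE14o- counterpart, at 71206482 to 71206721, had a signal of 29.97 and ranked 1721 (top 50.4%). The same site was thus near the top of the Calu3 list and in the middle of that of 16HBE14o-.

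The other shared HK1 site lay at the opposite end of the window, 2.59 kb inside the lower edge. In Calu3 it ran from 70982377 to 70982798 (summit 70982588), with a fold enrichment of 9.61, a −log10 p of 45.0 and rank 1170 (top 11.4%). In 16HBE14o- it ran from 70982453 to 70982692 (summit 70982573), with a signal of 31.8 and rank 1506 (top 44.1%). It belonged to a group of 4 Calu3 peaks in the first 12.3 kb of the window. The rest of the group had summits at 70982202, 70989293 and 70992260, fold enrichments of 2.999, 5.40 and 4.23 and ranks of 8206, 3300 and 4977, and none was overlapped in 16HBE14o-. RefSeq (GRCh38.p14) places HKDC1, a further member of the hexokinase family, next to HK1 on this lower side, and TACR2 and TSPAN15 on the upper side. Both shared sites therefore lie towards neighbouring genes, and which gene they belong to was not tested.

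Between the ends of the HK1 window the lines had no site in common. Calu3 had a peak at 71122418 to 71122848, 7.73-fold enriched and of rank 1765 (top 17.2%), the strongest unshared member of its list. It also had one at 71149959 to 71150138, which was 3.25-fold enriched and ranked 7430. The only 16HBE14o- peak there lay at 71093031 to 71093270, with a signal of 28.4 and rank 1948 (top 57.0%), the strongest unshared member in that line. Outside the window the nearest Calu3 summits were 158.7 kb below and 276.2 kb above it, and those of 16HBE14o- 40.2 kb below (rank 3379) and 276.2 kb above.

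HK2, the inducible hexokinase that many tumours express, had a single Calu3 peak and 3 peaks of 16HBE14o-. Its window runs from 75009 to 75171 kb on chromosome 2, and RefSeq places no other protein-coding gene within 50 kb of HK2. Of the 1498 tiles of that length on the chromosome, 36.3% held a Calu3 peak and 14.4% a 16HBE14o- peak. The Calu3 peak lay at 75092057 to 75092270 (summit 75092193), 83.2 kb inside the lower and 78.8 kb inside the upper edge. It had a fold enrichment of 3.74, a −log10 p of 5.10, a −log10 q of 1.69 and rank 5978 (top 58.3%). Its 16HBE14o- counterpart, at 75092108 to 75092347 (summit 75092228), had a signal of 59.3 and ranked 445 (top 13.0%). The HK2 site was thus in the weaker part of the Calu3 list and high in that of 16HBE14o-, the reverse of the HK1 sites.

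Such a pairing of ranks was uncommon in the lists. Of the 409 shared 16HBE14o- peaks that ranked as high as the HK2 site or higher, 17 (4.16%) met a Calu3 peak in the lower 50% of its list and 15 (3.67%) one ranked as low as that of HK2 or lower, HK2 included; this comparison was chosen after its values were seen. Ranks come from lists of different length and scale, so they do not show that binding differed between the lines. The other HK2 peaks of 16HBE14o- were an overlapping pair at 75072558 to 75072797 and 75072758 to 75072997. They had signals of 24.6 and 9.18, ranked 2601 and 3409, and lay 19.4 kb below the shared summit at their closest. As 1 of the 22 overlapping pairs of that list, they may count as 1 region, which leaves 2 in the window. As many 16HBE14o- peaks as in the HK2 window or more were in 11 tiles (0.734%) with the pair counted as 2.

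GAPDH, which links glycolysis to NADH production, had a peak of middling rank in both lines. The window, on chromosome 12 from 6594 to 6698 kb, held 2 Calu3 peaks and 1 peak of 16HBE14o-, and of its 1282 tiles 30.8% held a Calu3 peak and 9.05% a 16HBE14o- peak. As many Calu3 peaks or more were in 100 tiles (7.80%). The shared site was the widest member, 573 bp in Calu3, at 6641620 to 6642192 (summit 6641836). It had a fold enrichment of 4.71 and rank 4131 (top 40.3%), while its −log10 p of 16.6 put it in the top 22.4% by p. In 16HBE14o- it lay at 6641744 to 6641983 (summit 6641864), with a signal of 31.4 and rank 1552 (top 45.4%). It was 47.8 kb inside the lower edge in Calu3 and 47.9 kb in 16HBE14o-.

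The second GAPDH peak of Calu3, at 6644622 to 6644888, was 2901 bp further on. It had a fold enrichment of 2.11, rank 10077 and a −log10 q of 0, so it was close to the end of the list and was not overlapped in 16HBE14o-. RefSeq lists MRPL51 and NCAPD2 on the lower side of GAPDH and IFFO1, NOP2 and CHD4 on the upper side within 50 kb, so this window is rich in genes.

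LDHA, the enzyme that makes lactate, had 1 weak Calu3 peak and none in 16HBE14o-. The peak lay at 18405417 to 18405613 on chromosome 11, 39.5 kb inside the lower edge of a window from 18366 to 18480 kb. It had a fold enrichment of 2.04, the lowest of the members, with rank 10152 and a −log10 q of 0. Of the 1180 tiles of that length on the chromosome, 23.4% held a Calu3 peak and 10.6% a 16HBE14o- peak, so most tiles of this length held none in each list. Without Calu3 peaks of q 0.05 or more the LDHA window is empty in both lines, and widened by 50 kb on each side it takes in a site shared by both, with its Calu3 summit at 18350827. The nearest 16HBE14o- summits were 15.2 kb below and 621.3 kb above the window.

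SLC16A1, the lactate carrier, had no peak in either list in its window from 113404 to 113549 kb on chromosome 1. The nearest summits were 319.0 kb below and 135.5 kb above it in Calu3, and 1944 kb below and 1340 kb above it in 16HBE14o-. A Calu3 peak was in 33.6% and a 16HBE14o- peak in 12.6% of the 1713 tiles. Most tiles of this length were thus empty in each list.

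CXCR4, the chemokine receptor, also had no peak, in a window from 136822 to 136924 kb on chromosome 2. The nearest summits were 321.8 kb below and 69.8 kb above it in Calu3, the last with a fold enrichment of 5.28 and rank 3423. In 16HBE14o- they were 1146 kb below and 1906 kb above it. Of the 2379 tiles, 25.2% held a Calu3 peak and 9.63% a 16HBE14o- peak. Since the read depth is unknown, the missing peaks of SLC16A1 and CXCR4 were not detected at an unknown depth and are not shown to be absent.

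The collagenase genes MMP1 and MMP13 shared a window from 102610 to 102877 kb on chromosome 11, which held the strongest 16HBE14o- member. The site lay at 102722141 to 102722429 in Calu3 and 102722150 to 102722389 in 16HBE14o-, with the summit at 102722270 in both. Of the 1585 shared 16HBE14o- peaks, 24 (1.51%) had a summit on the same base as that of Calu3. This comparison was chosen after its value was seen. The 16HBE14o- member summits were at the middle of their 240 bp peaks, so no weight is put on the exact match. In Calu3 the site had a fold enrichment of 8.44, a −log10 p of 20.7 and rank 1503 (top 14.7%). In 16HBE14o- it had a signal of 99.2 and rank 135 (top 3.95%). By column 8 it stood at 17.6% from the top in Calu3, and by column 9, where top values are tied, at 15.5% in 16HBE14o-.

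The site was 112.3 kb from the lower and 154.7 kb from the upper edge of its window, away from both ends. RefSeq places MMP3 (stromelysin-1) and MMP12 (macrophage elastase) between MMP1 and MMP13, and MMP10 just below MMP1, so the site is in a cluster of protease genes and was not assigned to one of them. A further 16HBE14o- peak at 102835553 to 102835792 had a signal of 19.2 and rank 3272 (top 95.8%) and no Calu3 counterpart. Of the 504 tiles of that length, 42.1% held a Calu3 peak and 18.5% a 16HBE14o- peak. As many 16HBE14o- peaks or more were in 45 tiles (8.93%).

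**Figure D4:**
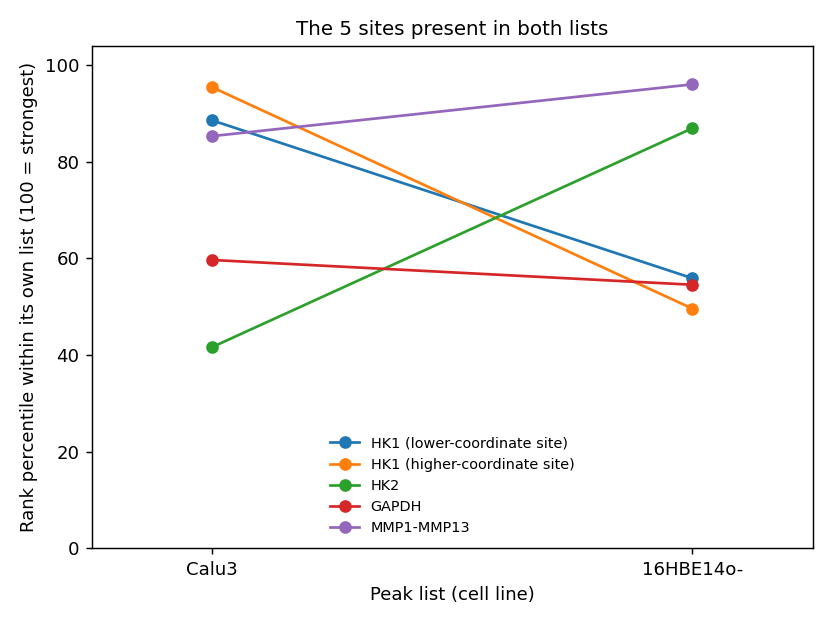
Rank percentile (100 is the strongest) of the 5 sites present in both lists, in Calu3 (left) and 16HBE14o- (right), with a line for each site. Both HK1 sites stand high in Calu3 and near the middle in 16HBE14o-, HK2 the other way round, GAPDH near the middle in both and the MMP1 to MMP13 site high in both; the lists differ in length and scale.

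The order of the shared sites differed between the lines. In Calu3 it was HK1 (higher coordinate), HK1 (lower coordinate), MMP1 to MMP13, GAPDH and HK2. In 16HBE14o- it was MMP1 to MMP13, HK2, HK1 (lower coordinate), GAPDH and HK1 (higher coordinate). In 16HBE14o- the last 3 of these had signals of 31.8, 31.4 and 29.97, which are close, and no replicate spread is at hand to separate them.

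Some Calu3 members had weak support. A deposited q of 0.05 or more was found for 3 of the 12 (25%, exact 95% interval 5.49 to 57.2), against 26.7% of all Calu3 peaks, a share that lies within the interval. These were the peak at 70982202 in the HK1 window, the second GAPDH peak and the LDHA peak. None of the 5 shared sites was among them. The Calu3 members were 156 to 573 bp wide (median 270.5, against 235 in the whole list). All 9 members of 16HBE14o- were 240 bp wide, in a list whose widths ran from 60 to 246 bp with a median of 240.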

How the data were processed

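BACH1 ChIP-seq was measured in Calu3 and 16HBE14o-, with 2 replicates each. Per the labels, the authors pooled the replicates of a line through the irreproducible discovery rate into 1 peak list on hg19, the build in the submitters' processing notes. No source used here names the aligner, the caller, the thresholds or a control. The deposited Calu3 columns are, as read from the format, each peak's fold enrichment (column 7), −log10 p (column 8) and −log10 q (column 9). The deposited 16HBE14o- columns are a signal whose scale is not stated (column 7) and a score (column 9) that can be negative and so is no −log10 q. Both lists have a deposited browser score (column 5).

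Here peaks with the summit (column 2 plus column 10) in a window were taken as members and ranked within their list by column 7. Ranks are over rows as deposited, unmerged. All member peaks were described, as were all 8 genes. Tiles of each window's length were laid from it to both ends of the chromosome's span of peaks. Coordinates are 1-based. Intervals are exact (Clopper-Pearson) and cover counting error only, and peaks are not replicates, so no test was run. The members and lists were chosen with earlier results of these data known. Other pathway genes were not analysed here, since this needed an hg19 annotation. Overlap, merging and tile counting were tested on simulated data. Python 3.11.15, numpy 2.4.6, pandas 2.3.3, scipy 1.17.1 and matplotlib 3.10.9 were used.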

Additional observations from a re-analysis of the deposited data

How the results depend on the processing

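The number of member peaks depended on the window and on the list. With windows narrowed by 25 kb on each side, 7 Calu3 peaks and 7 of 16HBE14o- remained. The group of Calu3 peaks at the lower end of the HK1 window and the Calu3 peak at its upper end were left out. Both shared HK1 sites were lost with them, so 3 shared sites remained, those of HK2, GAPDH and MMP1 to MMP13. In the upper 50% of each list 7 Calu3 and 4 16HBE14o- members were left, by construction. Taking any overlap with the window, windows widened by 50 kb, merged peaks or, in Calu3, q under 0.05 gave 9 to 14 Calu3 and 8 to 12 16HBE14o- peaks. The shared share ran from 33.3% to 60.0% in Calu3 and from 33.3% to 75.0% in 16HBE14o- over the 7 alternatives run on each. All were within the intervals of the values reported. Those intervals are wide (15.2 to 72.3 in Calu3 and 21.2 to 86.3 in 16HBE14o-), so this says little about stability. Reciprocal overlap of 50% ended the sharing of GAPDH alone (4 sites left), and cutting Calu3 to the length of the 16HBE14o- list ended that of GAPDH and HK2 (3 left). The LDHA window lost its only peak when Calu3 peaks of q 0.05 or more were left out, and when widened by 50 kb it gained a shared site (6 in all). The upper 50% of each list ended that of HK2 and of the higher-coordinate HK1 site (3 left). Ranked by −log10 p, HK2 stood at 68.1% from the top of Calu3 and GAPDH at 22.4%. By column 5 the MMP1 to MMP13 site stood at 17.6% in Calu3 and, tied, at 23.7% in 16HBE14o-. The Calu3 and 16HBE14o- positions of the MMP1 to MMP13 site were 17.6% by column 8 and 15.5% by column 9. Column 9 of 16HBE14o- is tied at its maximum for this site and for HK2. No paired analysis was possible because the authors pooled both replicates of a line before deposit, and for the same reason no replicate could be left out.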

Other observations

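Outside the GAPDH and LDHA windows lay a shared site each that ranked above the members of that window in Calu3; both were chosen after their values were seen. Below the GAPDH window, 54.1 kb from its edge in Calu3 and 54.2 kb in 16HBE14o-, a site ranked 20 in Calu3 (fold enrichment 34.4, summit 6539893) and 240 in 16HBE14o- (signal 80.5, summit 6539841). Below the LDHA window, 15.2 kb from its edge in both lines, a site ranked 591 in Calu3 (fold enrichment 13.0, summit 18350827) and 2828 in 16HBE14o- (signal 23.4, summit 18350809), whereas the LDHA window itself held a single Calu3 peak of rank 10152. RefSeq lists GTF2H1, a subunit of the general transcription factor TFIIH, as the neighbour of LDHA on that side.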
